A study of Mus musculus with 16 samples.

Results

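LSK cells labelled Gata2 were compared between Day2 and Day0 across the whole transcriptome. The members are the 2 libraries titled Day2_Gata2 and the 3 titled Day0_Gata2, taken by their sample titles, which makes 5 of the 16 libraries of the series. The series concerns mice that are haploinsufficient for Gata2, with low numbers of sorted LSK cells transplanted into lethally irradiated WT recipients. RNA came from mouse bone marrow, from cells negative for lineage markers, and was sequenced to gene-level read counts. The labels name the groups only by day and by WT or Gata2; they give no strain, age, allele design or treatment, do not say what the cells went through between Day0 and Day2, and name no animals behind the libraries. The p-values therefore measure the spread between libraries, which may in part be technical. The 2 Day0_WT and 3 Day2_WT libraries, LSK cells from WT marrow at the same days, entered the same fit. They share in the estimate of that spread, so every adjusted p depends on them as well, and they serve as the reference response.

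LSK cells (negative for lineage markers, positive for Sca-1 and Kit) are the marrow fraction that holds blood stem cells and multipotent progenitors. In unperturbed marrow the stem cells among them divide rarely, and when recruited to divide they raise the synthesis of proteins, nucleotides and lipids and change their energy metabolism. Gata2 encodes a zinc finger transcription factor that works with Runx1, Fli1, Erg, Tal1, Lyl1 and Lmo2 at regulatory elements of blood progenitors and is needed to maintain stem cells.

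Levels are CPM, read counts scaled to a common library size and by TMM, a factor that corrects each library for its composition; they compare libraries for 1 gene and not genes with each other, since they are not divided by gene length. A gene is called where edgeR's quasi-likelihood test gives a Benjamini-Hochberg adjusted p under 0.05 over all 19162 tested genes, and every adjusted p below comes from that test. Log2 fold changes are Day2 minus Day0, so that positive values are higher at Day2.

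Between Day0 and Day2, 858 genes rose and 924 fell, together 1782 or 9.3% of the genes tested (4.48% higher and 4.82% lower). Counts of calls in the gene lists below are to be read against this 9.3%. The rises were mostly small and the falls large. The median log2 fold change was 0.88 for the genes that rose, -1.97 for those that fell and -0.07 over all genes. More than 8-fold changes were found for 77 genes that rose and 315 that fell. Protein-coding genes made up 820 of the rises and 798 of the falls, and antisense genes 3 and 31. All 1782 called genes had the 2 Day2 libraries on one side of all 3 Day0 libraries, as did 11559 genes (60.3%) whether called or not, so that lack of overlap alone says little here. An unadjusted p under 0.05 was reached by 4871 genes. Among libraries labelled Gata2, the count of calls became 499 without Day2_Gata2 replicate 1, 804 without Day2_Gata2 replicate 2, and 862, 698 and 783 without Day0_Gata2 replicates 1, 2 and 3. It was 4863 without Day0_WT replicate 1 and 4606 without Day0_WT replicate 2.

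**Figure D1:**
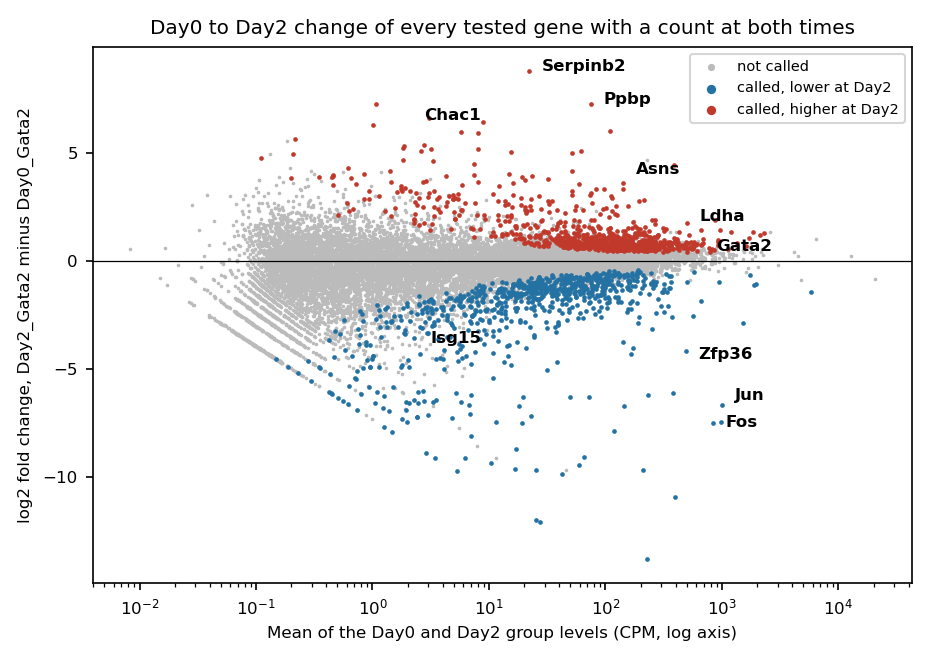
Each point is 1 of the 18307 tested genes with a count at both times; the x axis is the mean of the Day0_Gata2 and Day2_Gata2 levels (CPM, log axis) and the y axis the log2 fold change, Day2 minus Day0. Red points (called higher) lie close to 0 on the log2 scale more often than blue points (called lower), with medians of 0.88 and -1.97; fitted changes of genes with few counts depend on the prior count.

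The libraries themselves differed by day. Total counts were 48.1 to 68.3 M at Day0 and 51.7 and 53.4 M at Day2 (M, 1e6 counts). At least 1 count was found for 28286 to 30564 genes at Day0 and for 19266 and 21944 at Day2. Genes of the TEC class (loci awaiting experimental evidence) took 0.131% to 0.159% of counts at Day0 and 0.0648% and 0.0702% at Day2. A set of 4 genes that hold repeats of ribosomal or mitochondrial origin took 5.1% to 5.83% at Day0 and 3.19% and 3.51% at Day2. Mitochondrial genes took 0.462% to 0.653% at Day0 and 1.22% and 1.41% at Day2. The protocol names a stranded mRNA kit and a low-input kit without saying which library had which, so kit and day cannot be told apart. Day0_Gata2 replicate 3 had a mostly female pattern, with Xist at 282 and the Y-linked gene Ddx3y at 2.02 unscaled CPM. The other 4 libraries had the male pattern, with Ddx3y at 51.6 to 70.2 unscaled CPM. Among the WT libraries, Day0_WT replicate 2 had the female pattern (Xist 399 and Ddx3y 0.104 unscaled CPM). Day0_WT replicate 1 and the Day2_WT libraries had the male one. With sex as a covariate 1637 genes were called, 799 higher and 838 lower.

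Gata2 itself did not pass the test. Its level was 611, 752 and 677 CPM at Day0 and 491 and 737 CPM at Day2 (log2 fold change -0.15, SE 0.20, adjusted p = 0.715), and the groups overlapped. The WT libraries had 446 and 329 CPM in Day0_WT and 291, 262 and 259 CPM in Day2_WT, so the libraries labelled Gata2 had more of its reads than WT at either day, and counts summed over a gene do not tell its exons apart. Of the other 6 factors that act beside Gata2, Fli1 rose (0.66, adjusted p = 0.0315) and Erg fell (-1.10, adjusted p = 0.0164). Erg stood at 59.3, 67.6 and 52.2 CPM at Day0 and 33.3 and 22.5 CPM at Day2, so both Day2 libraries lay below every Day0 library. Tal1 (0.74, adjusted p = 0.102) and Lyl1 (-0.72, adjusted p = 0.203) had opposite signs and neither passed.

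The markers of the LSK gate were present in all 5 libraries. The receptor gene Kit had 544, 716 and 560.2 CPM at Day0 and 607 and 409 CPM at Day2, with overlapping groups, and the progenitor surface gene Cd34 had 804, 832 and 770.2 CPM at Day0 and 654 and 599.9 CPM at Day2. Ly6a, which encodes Sca-1, fell from 69.4, 64.1 and 69.3 CPM at Day0 to 19.6 and 32.4 CPM at Day2 (log2 fold change -1.38, SE 0.24, adjusted p = 0.00801). The 8 gate markers summed to 2182 to 2486 CPM at Day0 and to 1507 and 1688 CPM at Day2. Markers of cells that the gate should leave out moved in both directions. In summed CPM, Day0 range first and Day2 range second, 3 B cell markers were at 16.4 to 33.6 and 0.672 to 3.98, and 3 T cell markers at 6.21 to 6.62 and 0.0198 to 0.848, with Cd3e and Cd8a at 0 counts in both Day2 libraries. The 2 NK cell markers were at 3.24 to 3.58 and 0.572 to 0.81, 3 stroma and endothelium markers at 11.2 to 15 and 0.079 to 0.513, and 4 erythroid markers at 9.14 to 19 and 1.09 to 6.27. Higher at Day2 were the sums of 3 megakaryocyte markers (47.4 to 58.4 and 768 to 848), 4 neutrophil markers (31.1 to 74.9 and 101 to 168), 5 monocyte and macrophage markers (152 to 374 and 416 to 606) and 3 dendritic cell markers (8.06 to 9.22 and 23.7 to 37.4). In the monocyte and macrophage sum, Ccr2 rose (25.4, 16.2 and 36.6 CPM at Day0 and 302 and 210 CPM at Day2). C1qa was lower in both Day2 libraries, and Itgam, Adgre1 and Csf1r overlapped between the days. In the dendritic sum, Siglech rose (1.74, 3.11 and 2.45 CPM at Day0 and 36.2 and 23.2 CPM at Day2). Xcr1 and Zbtb46 were lower in both Day2 libraries. The 4 mast cell and basophil markers summed to 141 to 155 and to 139 and 146. In bulk libraries, fewer cells of a type and less RNA per cell cannot be told apart.

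**Figure D2:**
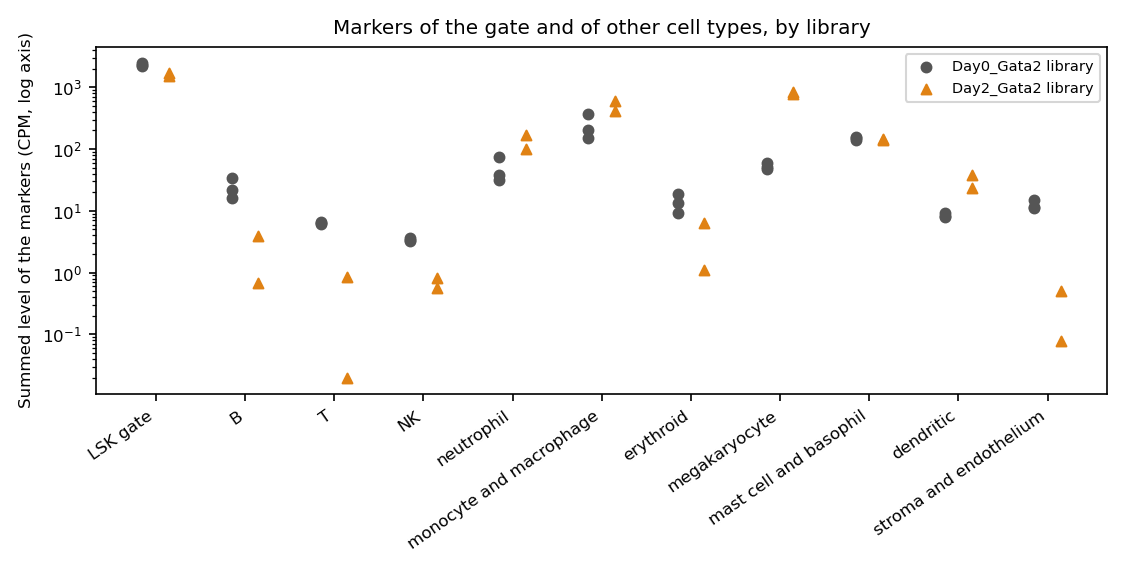
Summed level (CPM, log axis) of the markers of the LSK gate and of 10 other cell types in each of the 5 libraries, Day0 as circles and Day2 as triangles. The megakaryocyte sum is 768 and 848 CPM in the Day2 libraries and at most 58.4 CPM in the Day0 libraries, while B, T, NK and stromal sums are lower in both Day2 libraries than in any Day0 library.

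Immediate early genes, which are transcribed within minutes of a stimulus and encode short-lived regulators, fell together. Of 24 measured members 19 were called, all of them lower (79.2%, against 9.3% over all genes), with a median log2 fold change of -2.51. Fos, a subunit of the AP-1 transcription factor, had 1686, 2289.5 and 1022 CPM at Day0 and 11.7 and 6.88 CPM at Day2 (log2 fold change -7.48, SE 0.49, adjusted p = 8.09e-05). Its partner Jun had 2058, 2418 and 1485 CPM at Day0 and 19.4 and 20.2 CPM at Day2 (log2 fold change -6.65, SE 0.35, adjusted p = 3.6e-05). Both genes had their lowest Day0 level in Day0_Gata2 replicate 3 and were still far above the Day2 libraries there. Dusp1, a phosphatase that switches off MAP kinases, stood at 775, 960.1 and 525 CPM at Day0 and 10.7 and 11.4 CPM at Day2 (log2 fold change -6.09, SE 0.31, adjusted p = 3.6e-05). Zfp36, whose product marks AU-rich messages for decay, stood at 865, 1152 and 761 CPM at Day0 and 46.8 and 56.4 CPM at Day2 (log2 fold change -4.16, SE 0.26, adjusted p = 6.36e-05). Junb (-2.35), Jund (-2.58), Ier2 (-2.55) and Klf2 (-3.78) fell as well, with adjusted p of 0.000224, 0.000543, 0.00033 and 0.000314. Leaving out 1 library at a time gave 15 to 21 calls in this list.

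The CArG box, the site bound by serum response factor that many of these genes share, was searched for in windows of 250 bases before to 50 bases after the start site (RefSeq, GRCm38.p6), on both strands. Windows were found for 21 of the 24 genes, and 3 of them (Zfp36, Egr2 and Dusp5) held the motif, in 6 of 25 windows (24%, against 1.63% of all 32851 windows). Most of the 6 windows belong to nearby start sites of Egr2, and several of these hold the same site. The share of windows therefore counts that site more than once. Of the 3 genes with the motif only Zfp36 was called. Its upstream stretch is shown because it carries the motif in the gene with the lowest p among them, with the motif in capitals and the last base next to the start site, as a gene-strand sequence:
Zfp36, chr7:28379229-28379328, minus strand: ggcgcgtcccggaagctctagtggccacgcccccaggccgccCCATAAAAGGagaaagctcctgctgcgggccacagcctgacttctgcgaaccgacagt
A match in this window is a description of the letters and no evidence of binding.

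Genes of the NF-kB and chemokine list were lower in 18 of 21 cases, 8 of them called (38.1%), with a median of -1.42. The chemokine gene Ccl4 had 66.3, 96.7 and 57.1 CPM at Day0 and 2.73 and 2.94 CPM at Day2 (log2 fold change -4.69, SE 0.32, adjusted p = 8.18e-05) and its neighbour Ccl3 had 62.5, 77.4 and 64.6 CPM at Day0 and 17.7 and 15.9 CPM at Day2 (log2 fold change -2.02, SE 0.22, adjusted p = 0.000865). Nfkbiz (-3.07, adjusted p = 0.000388) and Nfkbia, a feedback inhibitor of NF-kB (-1.40, adjusted p = 0.00276), fell too. In each of these 4 genes both Day2 libraries lay below every Day0 library. Called NF-kB and chemokine genes numbered 4 without Day2_Gata2 replicate 1, 5 without Day0_Gata2 replicate 1 or 3 and 14 without Day0_WT replicate 1 or 2.

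The type I interferon program, the set of antiviral genes that the ISGF3 complex switches on, was lower at Day2 throughout. All 25 measured members had a negative log2 fold change and 17 were called (68%), with a median of -2.18. Irf9, the DNA-binding part of ISGF3, had 102, 98.5 and 115 CPM at Day0 and 35.2 and 38.6 CPM at Day2 (log2 fold change -1.51, SE 0.17, adjusted p = 0.000986). Irf7, the factor that amplifies interferon production, had 61.6, 51.6 and 92.2 CPM at Day0 and 6.93 and 7.02 CPM at Day2 (log2 fold change -3.29, SE 0.41, adjusted p = 0.00185). Among effectors, Oas2, a sensor of double-stranded RNA, had 32.2, 29.3 and 54.2 CPM at Day0 and 0.79 and 0.177 CPM at Day2 (log2 fold change -6.31, SE 0.69, adjusted p = 0.000907), and Ifi44 had 24.6, 25.4 and 39.8 CPM at Day0 and 0.553 and 1.54 CPM at Day2 (log2 fold change -4.84, SE 0.51, adjusted p = 0.000732). Isg15, a ubiquitin-like modifier, stood at 18.7, 12.8 and 20.9 CPM at Day0 and 2.65 and 2.29 CPM at Day2 (log2 fold change -2.82, SE 0.37, adjusted p = 0.00203), and Oas3, of the Oas2 family, at 28.7, 38 and 53.1 CPM at Day0 and 5.97 and 3.73 CPM at Day2 (log2 fold change -3.04, SE 0.41, adjusted p = 0.00255). Day0_Gata2 replicate 3 was the highest Day0 library for all 6 of these genes, and its values enter the Day0 means. Called members numbered 11 without Day2_Gata2 replicate 2. Reads of the near-identical Oas genes may be shared among them.

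Interferon elements of 10 bases (TTTCNNTTTC, both strands) were present in the windows of 10 of the 18 members that had one, in 10 of 22 windows (45.5%, against 3.44% of all windows of the same length). Of these 10 genes 6 were called, namely Isg15, Oas3, Oas1a, Ddx58, Bst2 and Ifit3, and Ifit1, Ifih1, Rsad2 and Stat2 were not. The stretches shown are those of the 2 called genes of lowest p whose element lies wholly before the start site, with the element in capitals (the match of Ddx58, which had a lower p, lies after its start); that of Isg15 holds 3 overlapping matches:
Isg15, chr4:156200837-156200936, minus strand: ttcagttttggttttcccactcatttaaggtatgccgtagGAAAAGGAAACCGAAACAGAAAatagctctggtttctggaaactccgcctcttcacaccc
Oas3, chr5:120777675-120777774, minus strand: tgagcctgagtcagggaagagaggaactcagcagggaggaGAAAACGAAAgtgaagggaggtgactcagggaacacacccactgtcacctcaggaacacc

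Genes of the interferon gamma response and antigen presentation were lower as well. Of 18 members of the interferon gamma and GTPase list 7 were called, all lower, with a median of -1.08. Irf1, a transcription factor of that response, had 141, 158 and 135 CPM at Day0 and 67.5 and 69.8 CPM at Day2 (log2 fold change -1.08, SE 0.15, adjusted p = 0.0029), and the GTPase gene Iigp1 had 18.3, 21.6 and 21.5 CPM at Day0 and 0.514 and 1.58 CPM at Day2 (log2 fold change -4.29, SE 0.64, adjusted p = 0.00403). Of 10 MHC class II genes 4 were called, all lower (median -1.08), among them the invariant chain gene Cd74 with 207, 165 and 212 CPM at Day0 and 59.1 and 64.2 CPM at Day2 (log2 fold change -1.66, SE 0.19, adjusted p = 0.00118). The class I genes H2-K1 (-1.11, adjusted p = 0.00301) and H2-D1 (-1.07, adjusted p = 0.00898) were among the 6 called genes that lost the most CPM; reads of these near-identical genes may be shared. H2-K1 stood at 2635, 2609 and 2516 CPM at Day0 and 1171 and 1217 CPM at Day2. The interferon gamma count became 4 without Day2_Gata2 replicate 1 and 14 without Day0_WT replicate 1 or 2. The MHC class II count became 2 without Day2_Gata2 replicate 1 or 2 and 8 without Day0_WT replicate 1 or 2.

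Cholesterol synthesis rose almost as a whole. Of the 21 genes measured 16 were called, all higher (76.2%), with a median log2 fold change of 1.58. Along the pathway, Hmgcs1, the first committed enzyme, had 38.4, 34.9 and 43.1 CPM at Day0 and 228 and 153 CPM at Day2 (log2 fold change 2.29, SE 0.48, adjusted p = 0.0182). Squalene is made by Fdft1 (1.76, adjusted p = 0.00374) and oxidised by Sqle (2.16, adjusted p = 0.00712), and both genes rose. Of the later sterol steps, Msmo1 had 15.2, 14.2 and 16.7 CPM at Day0 and 122 and 147 CPM at Day2 (log2 fold change 3.13, SE 0.14, adjusted p = 2.73e-05), the lowest p of all genes, and Cyp51 had 33.7, 33.6 and 31.7 CPM at Day0 and 162 and 130.0 CPM at Day2 (log2 fold change 2.15, SE 0.15, adjusted p = 8.18e-05). In each of these genes both Day2 libraries lay above all Day0 libraries. Called members numbered 8 without Day2_Gata2 replicate 1. Of 14 fatty acid synthesis genes 6 were called, all higher (median 0.88), with Scd1 at 0.739, 0.537 and 0.662 CPM at Day0 and 11.5 and 16.9 CPM at Day2 and Fads1 at 81.1, 83.2 and 77.4 CPM at Day0 and 239 and 218 CPM at Day2 (adjusted p = 0.000334 and 0.000805). Called fatty acid genes numbered 10 without Day0_WT replicate 2 and 11 without Day0_WT replicate 1.

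The sterol element bound by SREBP factors, searched as TCACNCCAC on both strands, was found in 1 of the 16 windows of the 13 cholesterol genes that had one (6.25%, against 1.24% of all windows). That window belongs to Hmgcs1 and is shown from -177 to -78 relative to the start site with the element in capitals:
Hmgcs1, chr13:119690174-119690273, plus strand: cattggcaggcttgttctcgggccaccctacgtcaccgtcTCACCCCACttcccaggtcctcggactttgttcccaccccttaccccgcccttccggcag

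The ATF4 program, which supplies amino acids and blunts oxidative load when amino acids run short, was higher at Day2. Of 23 members 13 rose and 1 fell, with a median log2 fold change of 0.89. Asns, asparagine synthetase, had 24.5, 18.7 and 21 CPM at Day0 and 259 and 264 CPM at Day2 (log2 fold change 3.61, SE 0.20, adjusted p = 3.6e-05). Chac1, which degrades glutathione, had 0.22, 0.219 and 0.338 CPM at Day0 and 16.6 and 15.3 CPM at Day2 (log2 fold change 5.92, SE 0.69, adjusted p = 0.00122), and Trib3, a pseudokinase that restrains ATF4, had 4.59, 4.92 and 4.14 CPM at Day0 and 17.3 and 21.6 CPM at Day2 (log2 fold change 2.10, SE 0.46, adjusted p = 0.0229). Amino acid transporters rose with them: Slc7a11, the cystine importer, stood at 1.28, 1.29 and 0.971 CPM at Day0 and 9.31 and 7.87 CPM at Day2 (adjusted p = 0.0186) and Slc7a5, the importer of large neutral amino acids, at 169.9, 177 and 179 CPM at Day0 and 348 and 417 CPM at Day2 (adjusted p = 0.00629). Serine synthesis was represented by Psat1 (1.69, adjusted p = 0.00295) and Psph (0.92, adjusted p = 0.00787). The member that fell was Cebpb, a transcription factor that partners with ATF4, at 68.3, 62.1 and 112 CPM at Day0 and 13.3 and 18.2 CPM at Day2 (log2 fold change -2.36, SE 0.47, adjusted p = 0.0153). Called rises numbered 5 without Day2_Gata2 replicate 1 and 6 without Day2_Gata2 replicate 2.

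The ATF4 composite element (TGATGNAA, both strands) lay in the windows of 6 of the 19 members that had one, in 6 of 22 windows (27.3%, against 3.97% of all windows). Of the 6, 5 rose (Asns, Chac1, Slc7a11, Trib3 and Pck2) and Atf3 was not called. Of all windows, 9 held overlapping matches of different motifs among the 4 searched. The 2 called genes of lowest p are shown with the element in capitals; in Chac1 it lies on the opposite strand:
Asns, chr6:7693210-7693309, minus strand: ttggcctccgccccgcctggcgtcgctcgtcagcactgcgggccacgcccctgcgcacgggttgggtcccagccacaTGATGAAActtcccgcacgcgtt
Chac1, chr2:119351009-119351108, plus strand: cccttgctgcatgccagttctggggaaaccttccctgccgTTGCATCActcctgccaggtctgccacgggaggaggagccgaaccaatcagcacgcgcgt

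The cytosolic tRNA synthetases, which load amino acids onto tRNAs, all had positive log2 fold changes. Of 20 measured 11 were called (55%, median 0.89). Farsb, a subunit of the phenylalanine enzyme, had 117, 115 and 109.5 CPM at Day0 and 227 and 242 CPM at Day2 (log2 fold change 1.04, SE 0.11, adjusted p = 0.000814), and Gars, the glycine enzyme, had 179, 171 and 165 CPM at Day0 and 377 and 403 CPM at Day2 (log2 fold change 1.18, SE 0.22, adjusted p = 0.0107). The Day0 libraries lay within a narrow range and both Day2 libraries were about 2-fold above them for Farsb. Called synthetases numbered 3 without Day2_Gata2 replicate 1 and 7 without Day0_Gata2 replicate 3 or Day2_Gata2 replicate 2. Of 19 genes of nucleotide and one-carbon synthesis 8 rose (median 0.41), including Mthfd2, the mitochondrial folate enzyme, at 32.6, 27.2 and 31.1 CPM at Day0 and 153 and 165 CPM at Day2 (log2 fold change 2.39, SE 0.50, adjusted p = 0.018), Shmt2 (1.01, adjusted p = 0.0039) and the guanine synthesis gene Gmps (1.12, adjusted p = 0.000939). That count became 3 without Day2_Gata2 replicate 1, 4 without Day0_Gata2 replicate 2 or 3 or Day2_Gata2 replicate 2 and 5 without Day0_Gata2 replicate 1.

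Most glycolysis genes measured were higher at Day2. Of 20 genes 13 were called, all higher (65%, median 1.04). Of the enzymes, Pfkl, a form of phosphofructokinase, had 306, 339 and 338 CPM at Day0 and 515 and 558 CPM at Day2 (log2 fold change 0.71, SE 0.12, adjusted p = 0.00583), and Eno1, enolase, had 674, 650.3 and 689 CPM at Day0 and 1629 and 1766 CPM at Day2 (log2 fold change 1.34, SE 0.20, adjusted p = 0.00444). Ldha, which makes lactate from pyruvate, had 1206, 1068 and 1084 CPM at Day0 and 2491 and 2139 CPM at Day2 (log2 fold change 1.05, SE 0.17, adjusted p = 0.00605), and Slc16a3, the transporter that exports lactate, had 15.3, 13.7 and 16.3 CPM at Day0 and 148 and 151 CPM at Day2 (log2 fold change 3.31, SE 0.19, adjusted p = 3.72e-05). Both Day2 libraries lay above all Day0 libraries for all 4 genes. Called glycolysis genes numbered 4 without Day2_Gata2 replicate 1, 7 without Day2_Gata2 replicate 2 and 8 without Day0_Gata2 replicate 1 or 2 or 3. Of 16 other genes of the hypoxia response 6 rose and 1 fell (median 0.54). The mitophagy receptor Bnip3 had 22.4, 20.3 and 17.7 CPM at Day0 and 73.4 and 64.9 CPM at Day2 (log2 fold change 1.78, SE 0.24, adjusted p = 0.0025), and the oxygen-sensing hydroxylases moved apart, with Egln3 higher (1.25, adjusted p = 0.00958) and Egln1 lower (-1.76, adjusted p = 0.00976). Called hypoxia rises numbered 2 without Day2_Gata2 replicate 1 or 2 and 3 without Day0_Gata2 replicate 2 or Day2_WT replicate 2.

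Of 11 tested genes of the mitochondrial genome 6 were called, all higher, with a median of 1.33. Log2 fold changes were positive for 7 of the 11 and negative for 4. The complex I subunit mt-Nd1 had 469, 350.5 and 291 CPM at Day0 and 1227 and 1492 CPM at Day2 (log2 fold change 1.88, SE 0.40, adjusted p = 0.0189), and mt-Cytb of complex III had 1234, 946 and 919 CPM at Day0 and 2437 and 2817 CPM at Day2 (log2 fold change 1.35, SE 0.29, adjusted p = 0.0219). Day0_Gata2 replicate 1 was the highest Day0 library for both. Nuclear genes of the same complexes had positive log2 fold changes in 24 of 24 cases, with a smaller median of 0.34. Of these genes 5 were called (20.8%, against 9.3% over all genes), led by Ndufs1 (0.67, adjusted p = 0.00801). The count for mitochondrial genes became 0 without Day0_Gata2 replicate 2 or 3 or Day2_Gata2 replicate 1 or 2 and 3 without Day0_Gata2 replicate 1 or Day2_WT replicate 2 or 3. The count for nuclear genes became 0 without Day2_Gata2 replicate 1, 1 without Day0_Gata2 replicate 2 or 3 or Day2_Gata2 replicate 2, 2 without Day0_Gata2 replicate 1 or Day2_WT replicate 2 or 3 and 10 without Day0_WT replicate 1. Reads of mitochondrial genes may be shared with nuclear copies. Of 17 genes of the oxidant and metal response 7 rose, among them the glutathione synthesis gene Gclm (1.29, adjusted p = 0.000546) and the metallothionein gene Mt1, at 24.4, 20.1 and 24.2 CPM at Day0 and 67.3 and 103 CPM at Day2 (log2 fold change 1.90, SE 0.20, adjusted p = 0.000763). The other metallothionein gene, Mt2, fell from 2.83, 2.31 and 1.34 CPM at Day0 to 0.652 and 0.335 CPM at Day2 (log2 fold change -2.12, SE 0.55, adjusted p = 0.0415). Hmox1, which breaks down heme, fell from 23.8, 19.6 and 17.2 CPM at Day0 to 5.81 and 1.93 CPM at Day2 (log2 fold change -2.38, SE 0.52, adjusted p = 0.0226). The transferrin receptor gene Tfrc, the entry port of iron, rose from 54.2, 46.6 and 49.8 CPM at Day0 to 389.7 and 282 CPM at Day2 (log2 fold change 2.74, SE 0.20, adjusted p = 0.000128). The count of oxidant response rises became 4 without Day2_Gata2 replicate 1.

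Genes of division and growth rose in part. Of 24 genes of G2 and mitosis 23 had a positive log2 fold change and 7 were called (median 0.70). Ccnb1, the mitotic cyclin, had 159, 129.8 and 109.6 CPM at Day0 and 330.3 and 349.7 CPM at Day2 (log2 fold change 1.36, SE 0.26, adjusted p = 0.0114), and the spindle gene Hmmr had 83.4, 62.9 and 62 CPM at Day0 and 142 and 176 CPM at Day2 (log2 fold change 1.19, SE 0.18, adjusted p = 0.00404). Called mitotic genes numbered 1 without Day2_Gata2 replicate 1 or 2, 2 without Day0_Gata2 replicate 2 or 3, 14 without Day0_WT replicate 2 and 18 without Day0_WT replicate 1. S phase genes were split, with 3 of 27 higher and 2 lower (18.5% called, against 9.3% over all genes, median 0.15). Both large and small subunits of ribonucleotide reductase rose (Rrm1 0.72, adjusted p = 0.0199; Rrm2 0.98, adjusted p = 0.00337), while Ccne2, a cyclin of S phase entry, fell from 167, 157 and 178 CPM at Day0 to 57.2 and 32.9 CPM at Day2 (log2 fold change -1.89, SE 0.25, adjusted p = 0.00241). The count of S phase rises became 0 without Day2_Gata2 replicate 1 and 1 without Day0_Gata2 replicate 1 or 2 or 3. Of 15 D cyclins, partner kinases and inhibitors 0 passed in edgeR (5 had an unadjusted p under 0.05), 2 in DESeq2 and 4 in limma voom. Log2 fold changes were positive for 11 of these 15 genes and negative for 4 (median 0.17). The inhibitor Cdkn1a, not the member of lowest p, had 58.1, 49.4 and 44.5 CPM at Day0 and 64.6 and 98.9 CPM at Day2 (log2 fold change 0.69, SE 0.20, adjusted p = 0.0611). Of 20 homologous recombination and Fanconi genes 0 passed in edgeR (3 had an unadjusted p under 0.05), 1 in DESeq2 and 2 in limma voom.

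Of 24 MYC and ribosome biogenesis genes 6 rose (median 0.32). Mycn, a MYC family factor, had 57.6, 78.4 and 73.1 CPM at Day0 and 165 and 161 CPM at Day2 (log2 fold change 1.23, SE 0.15, adjusted p = 0.00154), and the nucleolar chaperone gene Npm1 had 736, 562 and 553 CPM at Day0 and 1215 and 1222 CPM at Day2 (log2 fold change 0.98, SE 0.14, adjusted p = 0.00366). That count became 1 without Day2_Gata2 replicate 1, 2 without Day0_Gata2 replicate 1 or 2 or 3 or Day2_Gata2 replicate 2, 3 without Day2_WT replicate 2 and 10 without Day0_WT replicate 1. Of 21 genes of the endoplasmic reticulum 7 rose (median 0.41), among them Hsp90b1 (0.80, adjusted p = 0.00559) and Xbp1 (0.73, adjusted p = 0.0133). Of 18 cytosolic chaperones 4 rose, led by the chaperonin subunit genes Tcp1 (1.07) and Cct8 (0.78), with adjusted p of 0.000986 and 0.00356, and 3 fell (median 0.41). The heat-inducible Hspa1b fell from 139, 94.5 and 62.1 CPM at Day0 to 1.52 and 0.986 CPM at Day2 (log2 fold change -6.29, SE 0.45, adjusted p = 0.000108); its reads may be shared with the near-identical Hspa1a. Of 20 lysosome and autophagy genes 6 rose (30%, against 9.3% called over all genes), led by Lamp1 (0.96, adjusted p = 0.00424). Of 20 proteasome genes 4 rose (20%), led by Psmd1 (0.72, adjusted p = 0.00729). The count for the endoplasmic reticulum became 0 without Day2_Gata2 replicate 1, 2 without Day0_Gata2 replicate 2 or Day2_Gata2 replicate 2, 4 without Day0_Gata2 replicate 3 and 11 without Day0_WT replicate 1. The count of cytosolic chaperone rises became 2 without Day2_Gata2 replicate 1 and 7 without Day0_WT replicate 1. The lysosome count became 0 without Day2_Gata2 replicate 1, 2 without Day0_Gata2 replicate 2 or Day2_Gata2 replicate 2 and 3 without Day0_Gata2 replicate 1 or 3. The proteasome count became 1 without Day0_Gata2 replicate 2 or 3 or Day2_Gata2 replicate 1 or 2 and 10 without Day0_WT replicate 1.

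Among regulators of stem cell state, more genes fell than rose. Of 20 quiescence and FOXO genes 10 fell and 2 rose (median -0.92), a list that shares Klf2, Klf6, Nr4a1 and Nr4a2 with the immediate early genes. Btg2, an antiproliferative factor, had 247, 330.4 and 245 CPM at Day0 and 66.9 and 50.5 CPM at Day2 (log2 fold change -2.22, SE 0.19, adjusted p = 0.00023), and Rgs2, a brake on G protein signalling, had 164, 195 and 145 CPM at Day0 and 34.9 and 38.4 CPM at Day2 (log2 fold change -2.20, SE 0.20, adjusted p = 0.00038). Socs2, a feedback inhibitor of cytokine signalling, rose from 6.07, 5.67 and 6.26 CPM at Day0 to 17.9 and 31.6 CPM at Day2 (log2 fold change 2.04, SE 0.29, adjusted p = 0.0034). Of 21 stem cell transcription factor genes 4 fell and 2 rose (median -0.73). The member of lowest p was Egr1 (-2.62, adjusted p = 0.00278), which the immediate early list also holds. Hoxa9 had 65.9, 76.1 and 71.2 CPM at Day0 and 41 and 42.2 CPM at Day2 (log2 fold change -0.77, SE 0.14, adjusted p = 0.01), Sox4 had 659, 670.5 and 671 CPM at Day0 and 267 and 407 CPM at Day2 (log2 fold change -0.98, SE 0.17, adjusted p = 0.00823), and Gfi1 had 77.7, 73.6 and 68.2 CPM at Day0 and 29 and 31.5 CPM at Day2 (log2 fold change -1.28, SE 0.25, adjusted p = 0.0135). Its relative Gfi1b, a factor of the erythroid and megakaryocyte lineages, went the other way, with 41.3, 37.1 and 62.4 CPM at Day0 and 161 and 249 CPM at Day2 (log2 fold change 2.13, SE 0.53, adjusted p = 0.037). Hlf, a stem cell factor, had 108, 140.0 and 137 CPM at Day0 and 81.2 and 93.3 CPM at Day2 and did not pass (log2 fold change -0.56, SE 0.17, adjusted p = 0.0713). The count of falls among these factors became 1 without Day2_Gata2 replicate 1, 2 without Day0_Gata2 replicate 2 or Day2_Gata2 replicate 2 and 12 without Day0_WT replicate 1 or 2.

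At the cell surface, 5 of 16 progenitor and stem cell genes fell and 2 rose. Flt3, the cytokine receptor of lymphoid-primed progenitors, had 506, 492 and 459 CPM at Day0 and 101 and 126 CPM at Day2 (log2 fold change -2.10, SE 0.21, adjusted p = 0.00051). Procr, a receptor enriched on stem cells, had 21.8, 26.8 and 16.8 CPM at Day0 and 3.2 and 1.58 CPM at Day2 (log2 fold change -3.19, SE 0.44, adjusted p = 0.00298). Both genes were several-fold lower in either Day2 library than in the lowest Day0 library. Cd9 (2.54, adjusted p = 0.000173) and Itga2b (1.34, adjusted p = 0.00434), which stem cells share with megakaryocytes, rose. The count of falls at the surface became 2 without Day2_Gata2 replicate 1 and 8 without Day0_WT replicate 2. Of 22 genes of cytokine and growth factor receptors 4 fell and 1 rose (22.7% called, against 9.3% over all genes). The 1 that rose was the shared beta chain gene Csf2rb (log2 fold change 1.05, SE 0.21, adjusted p = 0.0142). Of 22 adhesion and homing genes 4 rose, with the laminin receptor subunit gene Itga6 at 81.3, 93.9 and 86.9 CPM at Day0 and 264 and 234 CPM at Day2 (log2 fold change 1.51, SE 0.14, adjusted p = 0.00032), and the guidance receptor gene Robo4 fell from 24.9, 25.7 and 24.1 CPM at Day0 to 3.56 and 2.37 CPM at Day2 (log2 fold change -3.07, SE 0.42, adjusted p = 0.00277). Among targets of signalling pathways, Axin2, a feedback target of Wnt signalling, fell from 68.9, 30.6 and 36.6 CPM at Day0 to 0.533 and 0.0986 CPM at Day2 (log2 fold change -7.15, SE 0.90, adjusted p = 0.00186) and Smad7, a feedback inhibitor of TGF-beta, from 34.8, 38.5 and 35.9 CPM at Day0 to 9.13 and 14 CPM at Day2 (log2 fold change -1.65, SE 0.29, adjusted p = 0.00754). The count of receptor falls became 2 without Day2_Gata2 replicate 1 or 2 and 7 without Day0_WT replicate 1 or 2. The count of adhesion rises became 1 without Day2_Gata2 replicate 1 and 2 without Day0_Gata2 replicate 2 or 3.

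Lymphoid priming, the low-level expression of lymphoid genes in multipotent progenitors, was lower at Day2. All 14 genes had a negative log2 fold change and 7 were called (median -1.88). Dntt, the template-free DNA polymerase of antigen receptor assembly, had 334, 279 and 389 CPM at Day0 and 43.9 and 46.9 CPM at Day2 (log2 fold change -2.88, SE 0.17, adjusted p = 3.72e-05), and Satb1, a chromatin organiser, had 185, 197 and 209 CPM at Day0 and 50.5 and 63.5 CPM at Day2 (log2 fold change -1.79, SE 0.26, adjusted p = 0.00354). Il7r, the interleukin 7 receptor gene, did not pass (log2 fold change -1.59, SE 0.64, adjusted p = 0.157). That count of falls became 4 without Day0_Gata2 replicate 1 or 2 or 3 or Day2_Gata2 replicate 1, 12 without Day0_WT replicate 1 and 13 without Day0_WT replicate 2. Of 14 B cell genes 4 fell (median -3.39), with Igkc, the kappa light chain constant gene, at 332, 450.1 and 487 CPM at Day0 and 0.0198 and 1.01 CPM at Day2 (log2 fold change -9.68, SE 1.76, adjusted p = 0.00967). Of 17 T and NK cell genes 8 fell and 1 rose, with a median of -5.09, or -3.25 when the 7 members without a count at Day2 are set at 3 counts per library. Lck, a kinase of T cell receptor signalling, had 36.5, 37 and 28.5 CPM at Day0 and 6.26 and 8.68 CPM at Day2 (log2 fold change -2.19, SE 0.27, adjusted p = 0.00172). The B, T and NK marker sums given above were lower alongside these lists, and their part in the lower lymphoid genes was not tested. The B cell count became 1 without Day2_Gata2 replicate 1, 2 without Day0_Gata2 replicate 1 or 2 or 3, 9 without Day0_WT replicate 1 and 11 without Day0_WT replicate 2. The T and NK cell count of falls became 2 without Day2_Gata2 replicate 2, 3 without Day0_Gata2 replicate 2 or 3 or Day2_Gata2 replicate 1 and 4 without Day0_Gata2 replicate 1.

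The megakaryocyte and platelet list had the highest median of all 47 lists (2.38), with 12 of 18 genes called, all higher (66.7%). Pf4, the platelet factor 4 chemokine gene, had 38.5, 34.1 and 30.7 CPM at Day0 and 702 and 769 CPM at Day2 (log2 fold change 4.42, SE 0.27, adjusted p = 5.73e-05), and Ppbp, another platelet chemokine gene, had 0.918, 0.936 and 1.03 CPM at Day0 and 158 and 139.9 CPM at Day2 (log2 fold change 7.27, SE 0.61, adjusted p = 0.00023). Subunit genes of the von Willebrand factor receptor rose together: Gp1ba had 6.49, 6.43 and 5.86 CPM at Day0 and 30.1 and 39.5 CPM at Day2, Gp1bb had 10.1, 7.92 and 8.7 CPM at Day0 and 40.05 and 81.3 CPM at Day2 and Gp9 had 13.5, 11.4 and 10.8 CPM at Day0 and 36.2 and 39.2 CPM at Day2 (adjusted p = 0.0105, 0.000743 and 0.00417). Both Day2 libraries lay above all Day0 libraries for each. Pf4, Gp1ba and Gp9 are also the 3 megakaryocyte markers above, so those sums are not separate evidence, and whether more megakaryocytic cells or more of this RNA per cell was present cannot be told apart. Called members numbered 5 without Day2_Gata2 replicate 1 and 7 without Day2_Gata2 replicate 2.

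Myeloid genes moved unevenly. All 14 late neutrophil granule genes had positive log2 fold changes and 4 were called (median 1.68), among them Ngp at 40.3, 41.9 and 81.2 CPM at Day0 and 235 and 521 CPM at Day2 (log2 fold change 2.80, SE 0.39, adjusted p = 0.00295) and Chil3 at 22.2, 14.5 and 25.2 CPM at Day0 and 122 and 142 CPM at Day2 (log2 fold change 2.67, SE 0.35, adjusted p = 0.00245). Day0_Gata2 replicate 3 was the highest Day0 library for both, and the 2 Day2 libraries differed about 2-fold in Ngp. Called granule genes numbered 2 without Day0_Gata2 replicate 1 or 2 or Day2_Gata2 replicate 2 and 7 without Day0_WT replicate 1 or 2. The neutrophil marker sums were higher alongside, with Ly6g below 1 CPM in all 5 libraries and Retnlg at 0 in Day2_Gata2 replicate 1 and at 11.6 CPM in replicate 2, and their part was not tested. Of 20 monocyte and macrophage genes 2 rose and 2 fell (20% called, against 9.3% over all genes). The chemokine receptor gene Ccr2 rose (25.4, 16.2 and 36.6 CPM at Day0 and 302 and 210.4 CPM at Day2, log2 fold change 3.30, SE 0.33, adjusted p = 0.000591), as did Gpnmb. Apoe, the lipid carrier, fell (391, 311 and 642 CPM at Day0 and 47.2 and 53.1 CPM at Day2, log2 fold change -3.16, SE 0.36, adjusted p = 0.00104). C1qa, a macrophage marker, was at 4.2 to 7.65 CPM at Day0 and at 0.296 and 0.513 CPM at Day2.

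Of 15 tested mast cell and basophil genes, a lineage in which Gata2 is known to act, 2 rose and 2 fell. Gzmb, granzyme B, had 2.16, 2.07 and 1.07 CPM at Day0 and 28.1 and 28.3 CPM at Day2 (log2 fold change 4.0, SE 0.68, adjusted p = 0.00719), and Alox5, the first enzyme of leukotriene synthesis, had 12.8, 16 and 25.1 CPM at Day0 and 187 and 167 CPM at Day2 (log2 fold change 3.30, SE 0.40, adjusted p = 0.00154). Prss34, a basophil protease, had 223, 301 and 449 CPM at Day0 and 27.3 and 12.8 CPM at Day2 (log2 fold change -4.02, SE 0.68, adjusted p = 0.00688), and Fcer1a, the IgE receptor subunit, had 6.63, 7.37 and 10.2 CPM at Day0 and 1.3 and 0.0986 CPM at Day2 (log2 fold change -3.52, SE 0.95, adjusted p = 0.0485). The rises and the falls were each clear of the other day's libraries. Erythroid genes fell, with 7 of 17 called, all lower (median -2.04). Klf1, the erythroid master regulator, had 36.4, 25.8 and 21.3 CPM at Day0 and 0.869 and 1.76 CPM at Day2 (log2 fold change -4.40, SE 0.56, adjusted p = 0.00199), and Car1, an early erythroid carbonic anhydrase, had 126, 71.7 and 54 CPM at Day0 and 0.178 and 0 CPM at Day2 (log2 fold change -9.84, SE 0.90, adjusted p = 0.000357). Erythroid marker sums were lower too, with Slc4a1 at 0 in Day2_Gata2 replicate 1, and their part was not tested. Of 15 dendritic cell genes 2 rose and 3 fell; Siglech, a plasmacytoid marker, rose from 1.74, 3.11 and 2.45 CPM at Day0 to 36.2 and 23.2 CPM at Day2 (log2 fold change 3.61, SE 0.51, adjusted p = 0.00317), and Xcr1, a conventional dendritic cell marker, fell from 2.32, 1.93 and 1.55 CPM at Day0 to 0 and 0.177 CPM at Day2 (log2 fold change -4.40, SE 1.17, adjusted p = 0.0471). The other two dendritic falls, Flt3 and Bst2, are counted above as well, Flt3 among the surface, receptor and lymphoid priming genes and Bst2 among the interferon genes. The count of dendritic falls became 1 without Day0_Gata2 replicate 1 or 3 and 5 without Day0_WT replicate 1 or 2.

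**Figure D3:**
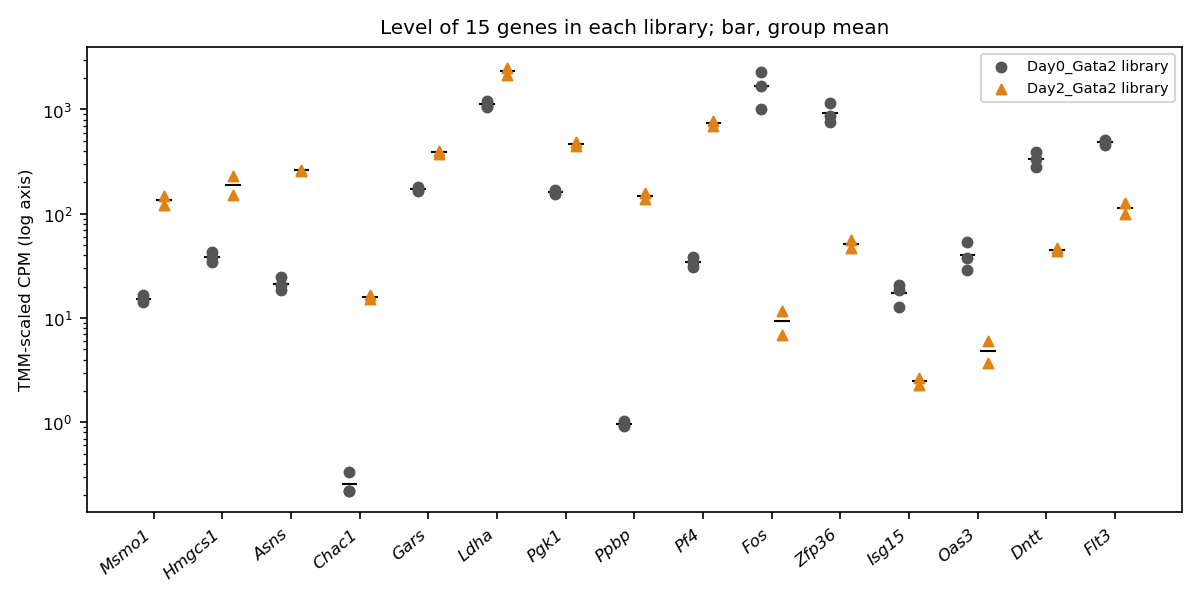
TMM-scaled CPM (log axis) of 15 genes named in the text in each Day0_Gata2 library (circles) and Day2_Gata2 library (triangles), with bars at the group means. The 9 genes from Msmo1 to Pf4 are higher in both Day2 libraries than in any Day0 library and the 6 from Fos to Flt3 are lower in both.

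The largest rises and falls lay outside these lists in part. Of the 10 largest rises, Serpinb2, an inhibitor of plasminogen activators, had 0.02, 0.0398 and 0.211 CPM at Day0 and 55.6 and 33.1 CPM at Day2 (log2 fold change 8.76, SE 0.67, adjusted p = 0.000148). Scin, an actin-severing protein gene known from megakaryocytes, had 3.69, 3.54 and 2.83 CPM at Day0 and 250.1 and 179.6 CPM at Day2 (log2 fold change 6.0, SE 0.85, adjusted p = 0.00309), and Col18a1, a basement membrane collagen gene, had 2.91, 3.64 and 4.01 CPM at Day0 and 138 and 100.2 CPM at Day2 (log2 fold change 5.08, SE 0.35, adjusted p = 9.76e-05). The others were Ppbp, Vat1l, Gpnmb, Chac1, Slc7a3, Nt5e and Aldh1l2, with log2 fold changes of 7.27, 6.62, 6.43, 5.92, 5.37, 5.17 and 5.17. Aldh1l2, of mitochondrial folate metabolism, and Slc7a3, an importer of basic amino acids, belong to the amino acid side described above.

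The 10 largest falls were Gprin1, Jchain, Pappa, Ankrd60, Prickle2, Ermap, Dmp1, Sphk1, Vsig8 and Wnt7b, of which the first 8 had 0 counts in both Day2 libraries and the last 2 a single count between them in each gene. Gprin1, a gene known from neurons, had 247, 228 and 267 CPM at Day0 and 0 and 0 CPM at Day2, at least 4182-fold lower against a floor of 3 counts per library. Pappa, a metalloprotease gene, had 85.9, 43.1 and 73.2 CPM at Day0 and 0 and 0 CPM at Day2, at least 1138-fold lower, and Dmp1, a bone matrix gene, had 19, 17.2 and 19.9 CPM at Day0 and 0 and 0 CPM at Day2, at least 316-fold lower. These bounds cover counting error only. Gprin1, Pappa, Ankrd60 and Dmp1 had 0 counts in the 3 Day2_WT libraries too, and Gprin1 had 165 and 266 CPM in Day0_WT and 85.3 to 132 unscaled CPM in the 6 Week2 libraries of CD45.2 cells. Jchain, the joining chain of secreted immunoglobulins, had 91.4, 88.8 and 93.9 CPM at Day0 and 0 and 0 CPM at Day2, at least 1543-fold lower. In all, 852 tested genes had no count in either Day2_Gata2 library, of which 145 were called and 437 had none in Day2_WT either, against 5 tested genes without a count in all 3 Day0_Gata2 libraries. Of the 852 genes, 18 averaged 10 CPM or more at Day0, and 7 of these were immunoglobulin segments and 2 were ribosomal RNA genes. The number of genes with a count, the TEC share and the repeat share given above differ by day in the same libraries, and their part in these falls was not tested. By CPM lost, Lars2, a mitochondrial tRNA synthetase gene that holds repeat sequence, led with 11451, 6683 and 7329 CPM at Day0 and 2268 and 4066 CPM at Day2 (log2 fold change -1.42, SE 0.31, adjusted p = 0.0215).

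The same interval in WT LSK cells gave the reference for what might differ in the libraries labelled Gata2. Of the 858 genes that rose, 851 had a positive log2 fold change in WT, and of the 924 that fell 909 had a negative one. The medians over these genes were 1.05 and -1.96 in WT. Across all 19162 tested genes the 2 responses correlated at r = 0.703, a description only, since genes are not independent replicates and the responses come from 1 fit. The difference between the responses was tested directly. By edgeR 0 genes passed (1984, or 10.4%, had an unadjusted p under 0.05), limma voom called 0, DESeq2 called 216, and 2 passed in edgeR when genes of low counts were kept. With Day0_WT reduced to its replicate 1, the shallow library of 19.6 M counts, edgeR called 6733. Nothing below is therefore called particular to the libraries labelled Gata2.

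**Figure D4:**
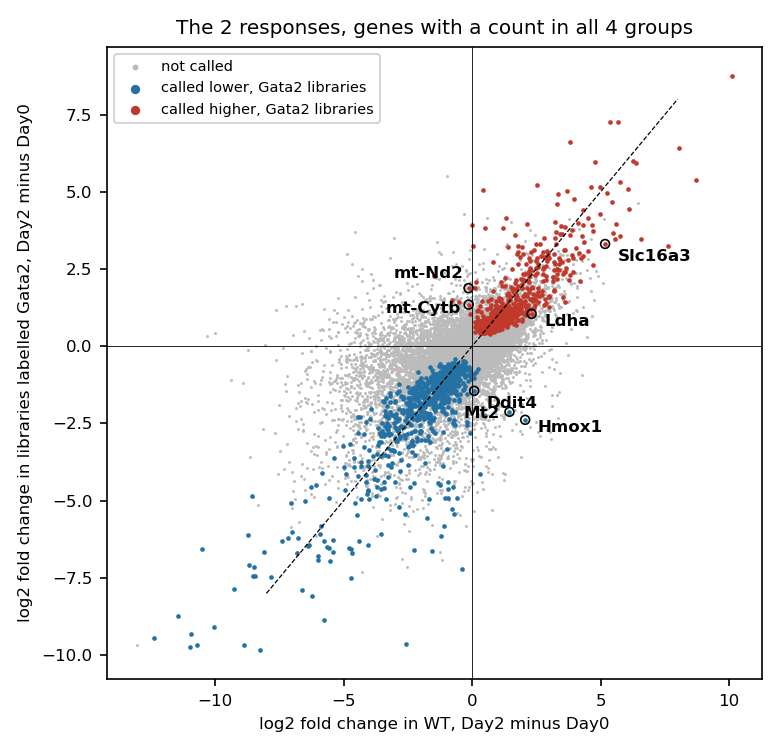
Log2 fold change from Day0 to Day2 in WT (x axis) and in the libraries labelled Gata2 (y axis) for the 17900 tested genes with a count in all 4 groups; colours show the calls in the libraries labelled Gata2 and the dashed line marks equal change. Called genes run along the line, with Hmox1 and Mt2 among those on the other side of 0; the difference passed the test for none of the genes.

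Among the 8 genes with the lowest p for the difference, 4 belong to glycolysis or the hypoxia response. Slc16a3 rose by 3.31 against 5.17 in WT (difference -1.86, SE 0.27, adjusted p = 0.465), where its levels were 7.3 and 11.7 CPM in Day0_WT and 346, 318 and 373 CPM in Day2_WT. Ldha rose by 1.05 against 2.32 in WT (difference -1.27, SE 0.25, adjusted p = 0.465), Pfkl by 0.71 against 1.64 and Egln3 by 1.25 against 2.99. The glycolysis list had a median of 1.04 in the libraries labelled Gata2 and 1.98 in WT. For the difference, 16 of its 20 genes had an unadjusted p under 0.05, against 10.4% of all genes. Genes of 1 list are not independent, and Day0_WT replicate 1 lay below Day0_WT replicate 2 in several of them. Ldha had 638 and 945 CPM in these 2 libraries and Eno1 341 and 606 CPM. The part of that library in the glycolysis difference was not tested. Hmox1 went in opposite directions, at -2.38 against 2.06 (difference -4.45, SE 0.73, adjusted p = 0.465), with 51.1 and 18.2 CPM in Day0_WT and 165, 129.7 and 139 CPM in Day2_WT. Mitochondrial genes had a median of 1.33 against -0.50, and Day0_WT replicate 1 was far above Day0_WT replicate 2 in them: mt-Cytb had 2712 and 1145 CPM in Day0_WT and 1838, 1811 and 1629 CPM in Day2_WT. Of the 1782 called genes 22 had the opposite sign in WT, 7 of those that rose and 15 of those that fell.

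Medians of several lists are given side by side as fitted, with genes without a count at Day2 not set at a bound. Those in the libraries labelled Gata2 and in WT were -2.51 and -2.79 for immediate early genes, -2.18 and -1.58 for type I interferon genes, and -1.88 and -2.06 for lymphoid priming genes. They were 1.58 and 2.21 for cholesterol synthesis, 0.89 and 0.82 for the ATF4 list and 2.38 and 2.43 for megakaryocyte and platelet genes. Among lists of other lineages they were -3.39 and -5.23 for B cell genes, -5.09 and -2.56 for T and NK cell genes, -2.04 and -3.78 for erythroid genes and 1.68 and 3.22 for late neutrophil granule genes. For stem cell transcription factors they were -0.73 and -1.24, with 9 of 21 genes at an unadjusted p under 0.05 for the difference and 0 past the adjusted threshold in edgeR.

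**Figure D5:**
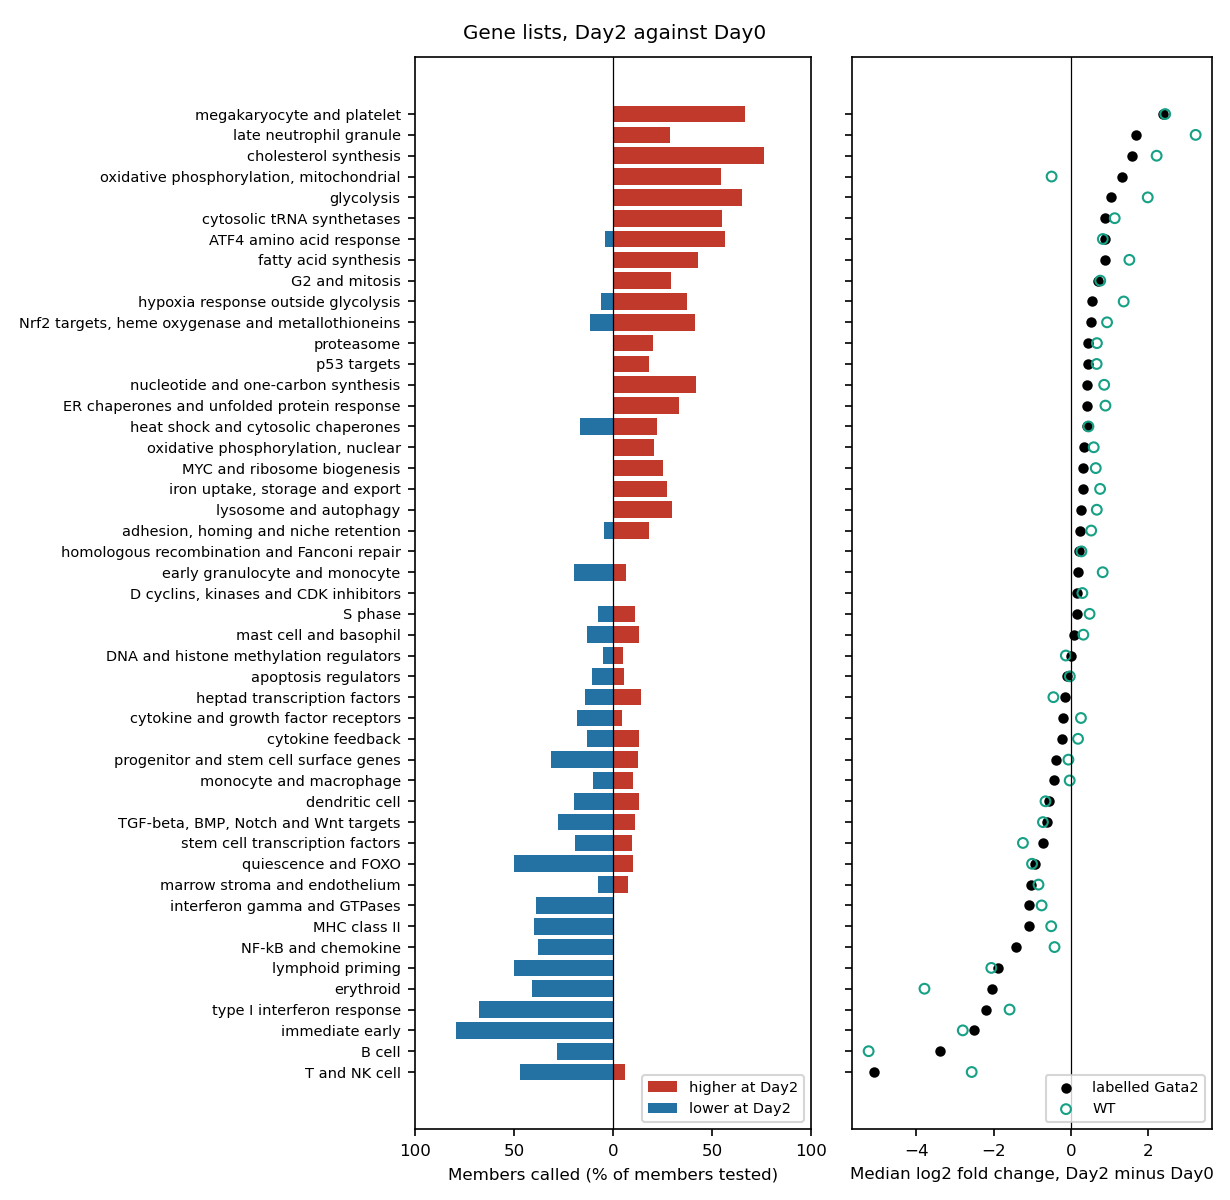
Left, percent of the tested members of each of the 47 gene lists called higher (red, to the right) or lower (blue, to the left) at Day2 in the libraries labelled Gata2. Right, median log2 fold change of each list in those libraries (filled) and in WT (open); the largest gap among the lists called mostly higher is that of the mitochondrial genes, at 1.33 and -0.50.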

How the data were processed

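The authors deposited raw counts, as whole numbers, for 45706 Ensembl gene IDs with 1 column per library. Per the submitters' processing notes, Trimmomatic 0.38, STAR 2.5.2b and mm10 were used, with counter, strand setting and annotation not given in the sources used here. Overlapping, antisense and near-identical genes may share reads. RNA came from RNeasy Micro columns and libraries from 1 of 2 kits, per the labels.

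Symbols and positions came from GENCODE M21 (45143 IDs matched). The counts of the 10 LSK libraries were fitted as 4 groups in edgeR 4.0.16 (R 4.3.3; TMM, filterByExpr, robust quasi-likelihood, 19162 genes, Benjamini-Hochberg, adjusted p under 0.05). CPM were computed from the counts. Library totals were 19.6 to 68.3 M. The 47 gene lists (828 genes matched; Azu1 did not) and the comparison were chosen with earlier results of these data known.

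Named were Gata2; the 10 largest rises and falls and the 6 genes that gained or lost most CPM, among called protein-coding genes of 5 CPM or more; the 3 members of lowest p per list; and the 8 genes of lowest p for the difference between responses. Other list members were chosen after their values were seen. Values of a few list members are not reported here. Motif searches were also made after results were known.

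The alternatives comprised upper quartile and RLE scaling, no filter or one of 5 CPM in 2 libraries, DESeq2 1.42.0, limma 3.58.1 voom, the 2 groups alone, all 16 libraries, a replicate block, sex, protein-coding genes alone and each library left out. A group left with 1 library was assumed to vary like the other groups. On simulated counts (18547 genes, 100 changed at each fold), 39% of 4-fold and 6% of 2-fold changes were recovered for Day2_Gata2 against Day0_Gata2. Far fewer genes changed there than were called in the data. The adjusted threshold was therefore stricter, and these shares do not carry over to the data. No 2 libraries of a group agreed within sampling noise.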

Additional observations from a re-analysis of the deposited data

How the results depend on the processing

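In all 1782 called genes the Day2 libraries lay on one side of every Day0 library, which leaves little room for a change of sign. That none of them changed sign under any of the 21 alternative settings in which it was fitted therefore says little. The number of calls moved widely. It was 3471 with DESeq2 (1451 higher, 2020 lower), 4127 with limma voom (2090 and 2037) and 5676 with the 2 groups alone (2515 and 3161). Higher calls were 371 with all 16 libraries (30.6% of 1213 calls) and 349 with no low count filter (23.3% of 1495), against 48.1% in the results above. Leaving out 1 library gave 499 to 4863 calls (190 to 2296 higher, 309 to 3053 lower); 465 of the 499 were among the 1782. Whether the replicate numbers pair the libraries could not be decided (correlations of -0.04 and 0.03 for the same number, only 2 pairs). With 2 Day2 libraries, their deviations from the group mean mirror each other. With the replicate block 745 genes were called (356 higher, 389 lower), 740 of them among the 1782. The difference between responses had 0 calls, but 216 with DESeq2 (169 higher, 47 lower), 2 with no low count filter (1 and 1), and 0 to 6733 with 1 library left out (0 to 2068 higher, 0 to 4665 lower). The log2 fold change of Gata2 was -0.49 to 0.035 with 1 library left out (0.035 without Day2_Gata2 replicate 1), against -0.15. The cause of these changes was not tested. Few changes of 2-fold were recovered on simulated counts, where far fewer genes changed than were called in the data. That simulation therefore does not say which share of such changes was missed here. Of the 858 genes called higher, 369 were over 2-fold, so smaller rises were called as well.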
